A study of Homo sapiens with 6 samples.

Results

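The proteasome subunit genes are the 48 loci of the expression table whose gene symbol is PSM, then a letter from A to G, then a number, out of 47577 loci in all, 26793 of them with a symbol. They encode the subunits of the proteasome, its activators and inhibitor, and the chaperones that assemble it. Their RNA was measured by sequencing of polyA RNA in OVCAR3, an established cell line of human high-grade serous ovarian adenocarcinoma. 3 cultures received DMSO, the solvent, for 6 h, and 3 cultures received 200 nM THZ531, a covalent inhibitor of the transcriptional kinases CDK12 and CDK13, for the same time. The series describes the 3 cultures of each group as biological repeats, and no other cell line, agent, dose or time was compared. The sample titles name THZ531, while the treatment protocol in the labels gives a related compound, THZ1, again at 200 nM, and the samples were assigned by title.

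The proteasome is the protease that degrades proteins tagged with ubiquitin. Its core particle is a barrel of alpha and beta subunits, with the proteolytic sites on the inner face of the beta rings. A regulatory particle caps the barrel: its base of ATPases unfolds the substrate, and its lid removes the ubiquitin chain. In cells whose proteasome is inhibited, the transcription factor NRF1, encoded by NFE2L1, is known to raise the subunit genes together through antioxidant response elements in their promoters. Serous ovarian carcinoma cells, like other dividing cells, use the proteasome to remove cell cycle regulators and misfolded proteins.

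The promoters of 4 members are shown because these genes mark the ends of the range described below. PSMA2 had the largest rise of all members, PSME4 and PSMD9 had the next largest rises among members with a promoter in the RefSeq table (GRCh38.p14), and PSMD5 had the largest fall. Each sequence holds the 250 bases before the start of the gene, 5′ to 3′ on the strand of the gene. Capitals mark matches on either strand to the antioxidant response element core TGACNNNGC, to CCAAT or to the ETS-type motif CCGGAAG. In PSMD9 a CCGGAAG match read on the opposite strand is followed directly by a TGACNNNGC match, with no shared base. The windows lie at chr7:42932175-42932424 (minus strand) for PSMA2, chr2:53970994-53971243 (minus strand) for PSME4, chr12:121888540-121888789 (plus strand) for PSMD9 and chr9:120842923-120843172 (minus strand) for PSMD5.
PSMA2: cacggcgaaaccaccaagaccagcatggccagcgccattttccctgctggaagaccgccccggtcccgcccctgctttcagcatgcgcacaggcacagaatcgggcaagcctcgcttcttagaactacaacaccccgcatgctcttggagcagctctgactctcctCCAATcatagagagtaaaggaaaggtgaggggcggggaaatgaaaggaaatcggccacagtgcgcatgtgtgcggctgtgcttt
PSME4: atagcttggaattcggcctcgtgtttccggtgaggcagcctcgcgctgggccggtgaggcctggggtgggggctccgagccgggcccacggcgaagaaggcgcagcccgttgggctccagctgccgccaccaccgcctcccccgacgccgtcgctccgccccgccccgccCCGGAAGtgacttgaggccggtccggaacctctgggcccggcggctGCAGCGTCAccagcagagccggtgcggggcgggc
PSMD9: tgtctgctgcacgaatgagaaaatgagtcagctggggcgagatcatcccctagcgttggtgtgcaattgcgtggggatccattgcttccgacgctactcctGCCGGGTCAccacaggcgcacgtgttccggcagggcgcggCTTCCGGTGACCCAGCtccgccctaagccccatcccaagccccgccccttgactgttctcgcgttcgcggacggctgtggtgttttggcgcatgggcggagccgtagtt
PSMD5: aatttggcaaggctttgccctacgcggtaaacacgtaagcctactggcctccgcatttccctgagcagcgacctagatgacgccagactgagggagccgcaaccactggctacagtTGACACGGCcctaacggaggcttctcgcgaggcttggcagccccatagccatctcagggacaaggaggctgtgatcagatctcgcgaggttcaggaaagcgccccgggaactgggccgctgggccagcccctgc

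Over the whole window of 250 bases before and 50 bases after the start, TGACNNNGC was found in 15 of 51 promoters of 42 members (29.4%), against 4687 of 35116 promoters of all genes (13.3%). CCGGAAG was likewise found in 15 of the 51 promoters (29.4%), against 3603 of all promoters (10.3%). CCAAT was found in 20 of the 51 (39.2%), against 12155 of all promoters (34.6%). The table holds more than 1 start for some genes, so promoters of a gene are not independent. A match is a description of the letters in the window and was not linked to any factor here. PSMD4, PSMB6, PSMA7, PSMB1, PSMG3 and PSMB7 had no entry.

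The values are read counts that the authors normalized with the size factors of DESeq2, and they are given below in the order of replicates 1, 2 and 3. The reads counted per library ranged from 53054048 to 70986130, and the sums of the normalized values were higher in all 3 THZ531 libraries than in all 3 DMSO libraries. Differences are log2 fold changes of THZ531 over DMSO on the log2(value + 1) scale, fitted with limma over the 17568 loci that reached a value of 10 in 3 or more of the 6 libraries. A gene was called changed at a Benjamini-Hochberg adjusted p of at most 0.05 at any fold. It was called regulated where the fold reached 1.5 and the unadjusted p did not exceed 0.05, the thresholds of the study. The epithelial keratins KRT7, KRT8 and KRT18 were abundant, with mean DMSO values of 130310, 153783 and 114489. The summed values of 8 epithelial markers, mostly these keratins, were 435984–446692 in DMSO and 555188–567568 in THZ531. PAX8 fell from a mean of 11272 to 1241 and MUC16 from 4598 to 3334, while EPCAM and CDH1 rose. WT1 was low (mean 650 in DMSO and 579 in THZ531) and did not pass the test. Markers of other cells were low: the 4 leukocyte markers summed to 135–174 over all libraries with CD3E at 0, the 3 endothelial markers to 162–299, and the 4 fibroblast markers to 989–1078 in DMSO and 2122–2409 in THZ531, nearly all of it COL1A1. All libraries are cultures of an established cell line, and the source of these marker reads was not tested. In bulk RNA, fewer cells of a type and less RNA per cell cannot be told apart.

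In the deposited scaling most proteasome subunit genes were moderately higher after THZ531. Of the 46 members tested, 32 rose, 3 fell (PSMD5, PSME3 and PSMB9) and 11 did not pass the test. Over all 17568 loci, 68.6% were called changed, 34.6% higher and 34.1% lower. Only 2 members, PSMA2 and PSMB7, passed the call of regulated, both higher, against 39.5% of all loci regulated, 15.7% higher and 23.9% lower. The members' median log2 fold change was 0.27, with quartiles of 0.07 and 0.41 and the whole range from -0.47 to 0.65. Over all loci the median was -0.01 and the quartiles were -0.63 and 0.42. Members are abundant RNAs, and the 6929 loci whose DMSO mean reached 1000 had a median of 0.13, with 51.0% changed and higher. The 3 libraries of each group did not overlap in 34 members with THZ531 higher and in 3 members with THZ531 lower, against 36.0% and 35.7% of all loci.

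**Figure D1:**
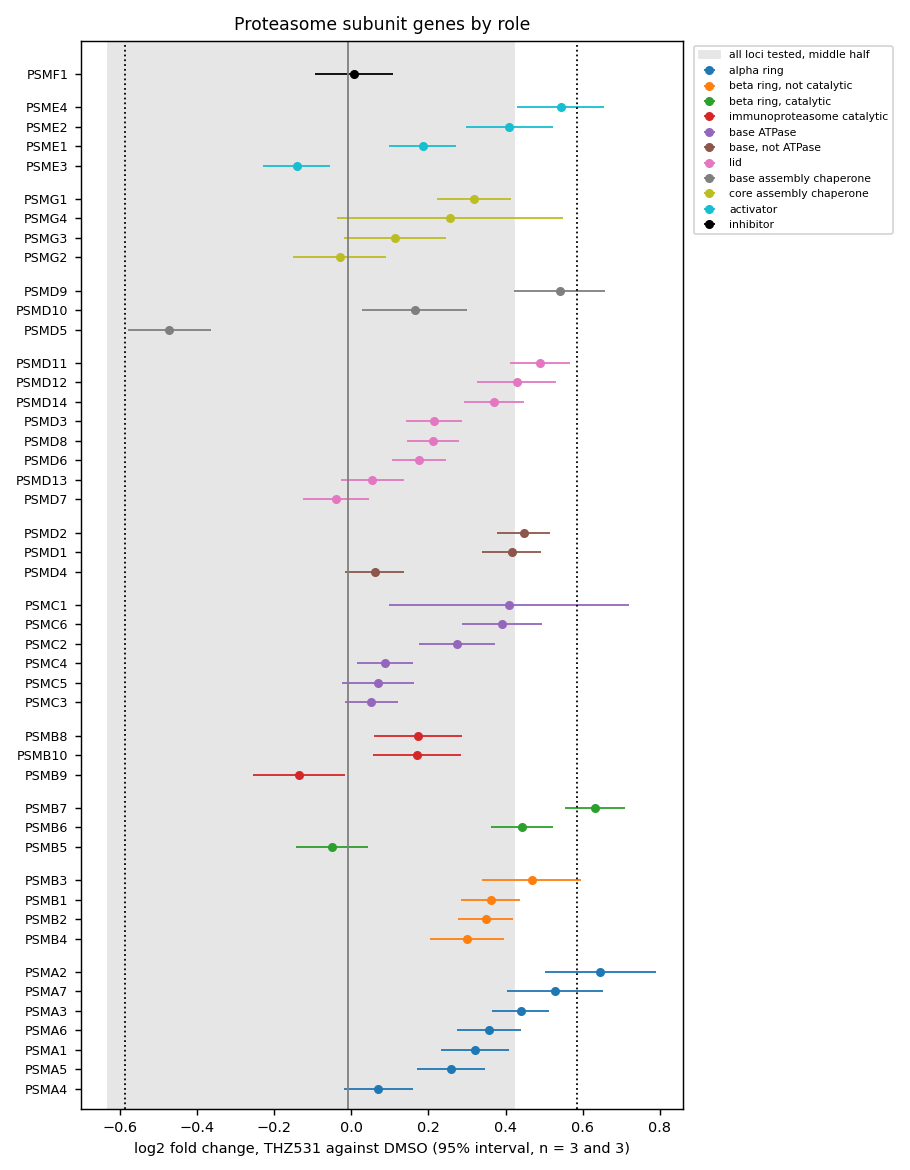
Log2 fold change of THZ531 over DMSO (horizontal axis) for each of the 46 tested members, grouped by role. Points are the fitted values, bars their 95% intervals, the grey band the span between the quartiles of all loci tested, and the dotted lines a fold of 1.5. Most members lie to the right of 0 and inside the dotted lines, with PSMA2 and PSMB7 past the right line and PSMD5 lowest at -0.47; the same plot scaled to RPL34 would have most members to the left of 0.

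These directions depended on the scaling of the libraries. With every library scaled to the same total, the THZ531 libraries moved by -0.24 on the log2 scale relative to DMSO, 18 members rose and 13 fell, and the members' median was 0.02. With every library scaled to RPL34, a ribosomal protein RNA that itself rose by 0.49 in the deposited values, no member rose, 24 fell and the median was -0.23. Each scaling shifts all loci by nearly the same amount. The distance of the members' median from that of all loci was therefore 0.27 in all 3 cases by construction. PSMA2, PSMA7, PSMB7, PSMD9 and PSME4 were the 5 members above 0 in all 3 scalings, at 0.04 to 0.15 and past no test when scaled to RPL34, while PSMD5, PSME3 and PSMB9 fell in all 3. In what follows, rose and fell refer to the deposited scaling. Quantities within a library do not depend on the scaling. The members together made up 0.851%, 0.823% and 0.805% of all values in DMSO and 0.838%, 0.836% and 0.843% in THZ531, and these ranges overlap.

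**Figure D2:**
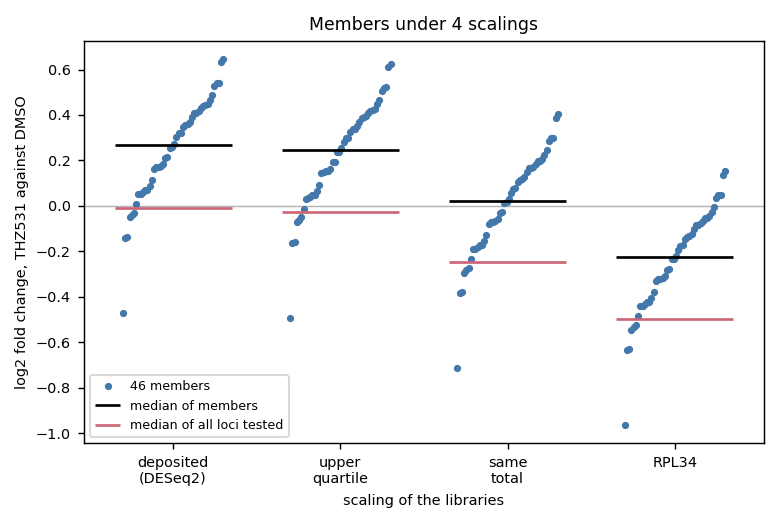
Log2 fold change of the 46 tested members (vertical axis, points sorted within each column) under 4 scalings of the libraries. Black bars are the members' median and red bars the median of all loci tested. By construction both move down together, from 0.27 and -0.01 in the deposited scaling to -0.23 and -0.50 when libraries are scaled to RPL34.

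The core particle and the regulatory particle were also set side by side. Among the 14 constitutive core genes 12 rose and none fell, with a median log2 fold change of 0.36 in the deposited scaling. Among the 17 genes of the base and lid 12 rose and none fell, with a median of 0.21. This difference in calls was not tested. The summed values of the 14 core genes divided by those of the 17 base and lid genes were 0.556, 0.542 and 0.530 in DMSO and 0.611, 0.594 and 0.594 in THZ531. The groups did not overlap, and they did not overlap without PSMB7 either (0.493–0.517 in DMSO and 0.544–0.559 in THZ531). The divisor held only genes with a PSM symbol. It left out ADRM1, a ubiquitin receptor of the base, with means of 19050 in DMSO and 32552 in THZ531. SEM1, with means of 8213 and 10927, was left out too. PSMC1 entered with its own locus (mean DMSO value 239), without the locus on its chromosome 3 pseudogene copy (17696). Whether the groups stay apart with these values added was not tested. Among the 15 other members tested (immunoproteasome subunits, chaperones, activators and inhibitor) 8 rose and 3 fell.

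The alpha ring, which gates the entrance of the barrel, had 6 of its 7 genes higher, with a median log2 fold change of 0.36, while only PSMA2 and PSMA7 stayed above 0 when scaled to RPL34. PSMA2, an alpha subunit, had values of 4976, 4212 and 3902 in DMSO and 7112, 6636 and 6641 in THZ531. All treated libraries were well above all controls, and DMSO replicate 1 was the highest control. The log2 fold change was 0.65 ± 0.07 (SE, n = 3 and 3; adjusted p = 3.24e-07 in limma), and without DMSO replicate 3 it was 0.57, below the 1.5-fold threshold. PSMA7, the most abundant alpha subunit RNA per kb of transcript, had values of 16803, 15124 and 13448 in DMSO and 22435, 21079 and 21697 in THZ531. Here too the groups were apart, with a log2 fold change of 0.53 ± 0.06 (SE, adjusted p = 6.49e-07 in limma). PSMA3 (0.44), PSMA6 (0.36), PSMA1 (0.32) and PSMA5 (0.26) also rose. PSMA4 did not pass the test, with a log2 fold change of 0.07 and a 95% interval of -0.02 to 0.16.

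The 4 structural beta subunits all rose in the deposited scaling, while all 4 were below 0 when scaled to RPL34. The log2 fold changes of PSMB1 (0.36), PSMB2 (0.35), PSMB3 (0.47) and PSMB4 (0.30) were close, and in none of them did the groups overlap. PSMB4, the most abundant of them, had values of 24240.2, 22554 and 20795 in DMSO and 27969, 27266 and 27884 in THZ531. The smallest THZ531 value was thus above the largest DMSO value, with adjusted p = 1.9e-05 in limma.

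Of the 3 catalytic subunits of the constitutive core, PSMB6 and PSMB7 rose and PSMB5 did not pass the test. PSMB5, which carries the chymotrypsin-like site, had values of 7637, 7209.8 and 6857 in DMSO and 6877, 6877 and 7188 in THZ531. These groups overlapped, and the log2 fold change of -0.05 had a 95% interval of -0.14 to 0.04. The PSMB5 locus lies within the listed coordinates of DAD1, which had a log2 fold change of 0.15. Reads over the bases that PSMB5 and DAD1 share were not separated here. PSMB6, which carries the caspase-like site, had values of 6752, 6519 and 6368 in DMSO and 9053, 8863 and 8762 in THZ531, with no overlap. Its log2 fold change was 0.44 ± 0.04 (SE, adjusted p = 3.66e-08 in limma). PSMB7, which carries the trypsin-like site, had values of 10403, 10098 and 9961 in DMSO and 16262, 15614 and 15308 in THZ531, with a log2 fold change of 0.63 ± 0.04 (SE, adjusted p = 3.51e-10 in limma). This was the second largest rise among the members, but the locus overlaps another one on the opposite strand.

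**Figure D3:**
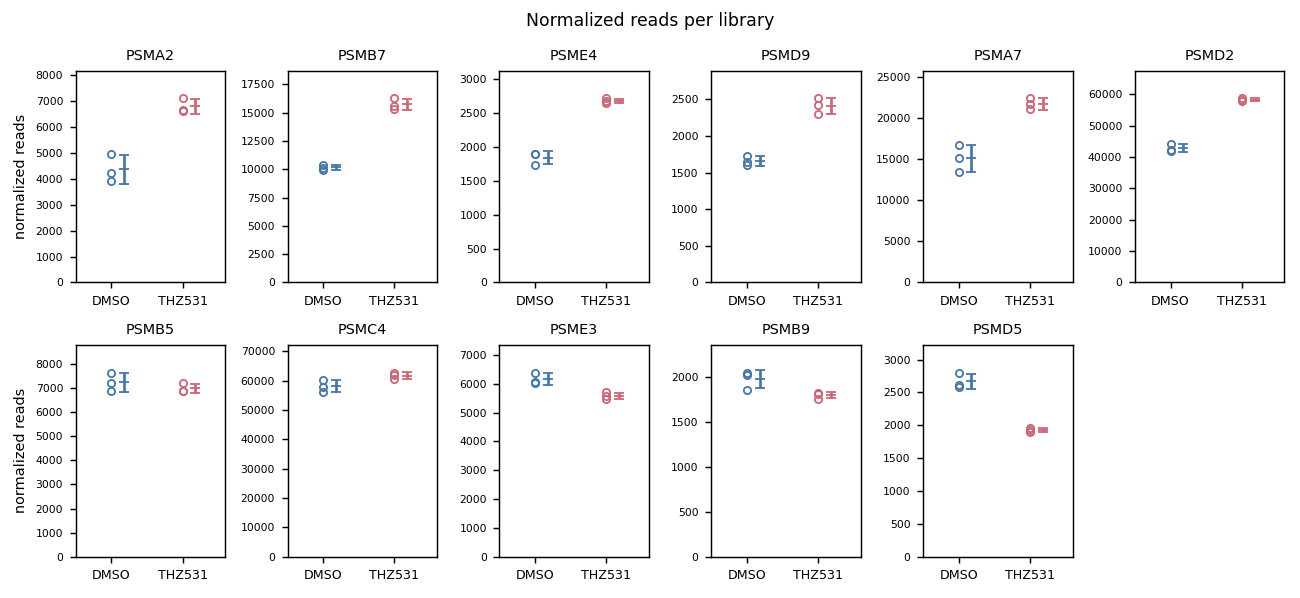
Normalized value in each of the 6 libraries for PSMA2, PSMB7, PSME4, PSMD9, PSMA7, PSMD2, PSMB5, PSMC4, PSME3, PSMB9 and PSMD5. Open circles are libraries and bars show the mean ± SD of 3 libraries. Circles of both groups interleave for PSMB5 only; for PSMC4, PSMB9 and PSME3 they are separate but close.

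PSMB7 lies on the minus strand at chr9:124353465-124415473 (hg38) and has 8 exons. The locus LOC100129034, a RefSeq long noncoding RNA on the plus strand at chr9:124353473-124359186, covers all 152 bases of PSMB7 exon 7 and 237 of the 245 bases of exon 8, the last exon. LOC100129034 had values of 6908, 6967 and 7049 in DMSO and 1042, 1004 and 1061 in THZ531. All 3 treated libraries were far below all controls, and LOC100129034 had a log2 fold change of -2.75 ± 0.05 (SE, adjusted p = 2.65e-15 in limma), with the smallest p of all 17568 loci. Its share of the summed values of both loci was 39.9%, 40.8% and 41.4% in DMSO and 6.02%, 6.04% and 6.48% in THZ531. The sum of PSMB7 and LOC100129034 was 17311, 17065 and 17010.2 in DMSO and 17304, 16617 and 16369 in THZ531. The groups overlapped in this sum, with a log2 difference of -0.03 (exact two-sided permutation test, p = 0.3, where 3 against 3 cannot go below 0.1). The libraries were made with a kit that keeps the strand, but the strand setting of the counting is not given in the sources used here. Whether reads of PSMB7 and of its antisense partner were kept apart is therefore not known, and the rise of PSMB7 is uncertain. NEK6, the next gene on that side, fell by 0.29 on the log2 scale.

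**Figure D4:**
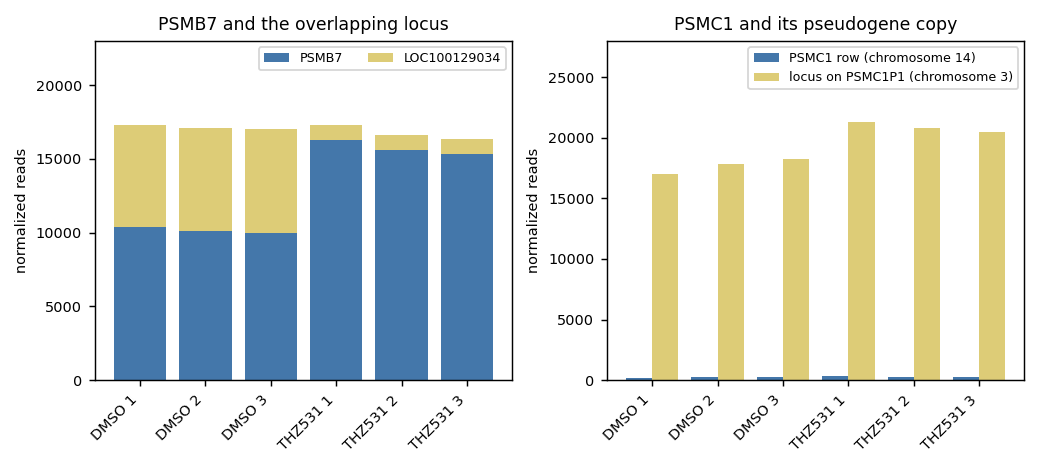
Normalized values in the 6 libraries for PSMB7, LOC100129034 and their sum, and for the PSMC1 locus on chromosome 14 and the locus on its chromosome 3 pseudogene copy. PSMB7 rises while LOC100129034 falls, and the sum lies between 16369 and 17311 in all libraries.

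Loci named as antisense to other members were lower too, at low values. PSMB8-AS1 had values of 109.6, 68.7 and 105 in DMSO and 11.3, 48.9 and 19.3 in THZ531, PSMG3-AS1 of 151, 101 and 139.6 in DMSO and 25.2, 53.4 and 28.4 in THZ531, and PSMD6-AS2 of 258, 209.7 and 208 in DMSO and 71.8, 72.7 and 66 in THZ531. In each of them every treated library was below every control, with log2 fold changes of -2.01, -1.90 and -1.66 (adjusted p = 0.000462, 2.8e-05 and 3.95e-07 in limma). PSMA3-AS1 did not pass the test, with a log2 fold change of -0.05. PSMB8-AS1 and PSMD6-AS2 overlap PSMB8 and PSMD6, and how far their losses touch the values of these genes was not tested. PSMG3-AS1 lies beside PSMG3 and shares no bases with it.

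The immunoproteasome subunits replace the constitutive catalytic subunits in immune cells and in cells exposed to interferon. PSMB8, which takes the place of PSMB5, had values of 2795, 2687 and 2521 in DMSO and 2844, 3104 and 3072 in THZ531. It rose slightly, by 0.17 ± 0.05 (log2, SE, adjusted p = 0.00928 in limma), and the adjusted p was 0.0504 without THZ531 replicate 2 and 0.0619 in limma without a trend. PSMB9, which takes the place of PSMB6, had values of 1863, 2031 and 2055 in DMSO and 1831, 1818 and 1762 in THZ531. The groups were adjacent without overlap, with a log2 fold change of -0.14 ± 0.06 (SE, adjusted p = 0.0406 in limma). The call was lost without DMSO replicate 2 (adjusted p = 0.133) or 3 (0.122), without THZ531 replicate 1 (0.0615), 2 (0.0735) or 3 (0.116), and with the replicate number as a block (0.0545). It was also lost with no minimum (0.0550), in limma without a trend (0.0855) and in DESeq2 (0.0523). PSMB10, which takes the place of PSMB7, had values of 3167, 3027 and 2724 in DMSO and 3330.1, 3346 and 3340.2 in THZ531. It was 0.17 ± 0.05 higher (log2, SE, adjusted p = 0.0107 in limma), and the adjusted p was 0.0554 without DMSO replicate 3 and 0.0758 in limma without a trend.

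The ratio of each immunosubunit to its constitutive counterpart within a library is free of the scaling. PSMB8 over PSMB5 was 0.366, 0.373 and 0.368 in DMSO and 0.414, 0.451 and 0.427 in THZ531. PSMB9 over PSMB6 was 0.276, 0.312 and 0.323 in DMSO and 0.202, 0.205 and 0.201 in THZ531. PSMB10 over PSMB7 was 0.304, 0.3 and 0.273 in DMSO and 0.205, 0.214 and 0.218 in THZ531. The groups did not overlap in any of the 3 ratios, the first being higher and the others lower in THZ531. Each gave p = 0.1 in the exact two-sided permutation test, the smallest p that 3 against 3 allows, and 0.1 after Benjamini-Hochberg adjustment over the 3 ratios. With LOC100129034 added to PSMB7 the direction of the last ratio turned, from a mean of 0.173 ± 0.012 in DMSO to 0.199 ± 0.006 in THZ531 (SD, n = 3 each).

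The 6 ATPases of the base form the ring that unfolds substrates, and 4 of them rose, while all 6 were below 0 when scaled to RPL34. PSMC4, the member with the highest level per kb, had values of 60190.4, 57905 and 56014 in DMSO and 60429.7, 61808 and 62713 in THZ531. These groups were separated by only a small gap, with a log2 fold change of 0.09 ± 0.03 (SE, adjusted p = 0.032 in limma). The call was lost without DMSO replicate 2 (adjusted p = 0.0911) or 3 (0.0890), without THZ531 replicate 2 (0.0982) or 3 (0.136), and with the replicate block (0.0531). It was also lost with no minimum (0.0561), with upper-quartile scaling (0.103), in limma without a trend (0.166) and in edgeR (0.105). PSMC6 (0.39) and PSMC2 (0.27) rose on the log2 scale, while PSMC3 (0.05) and PSMC5 (0.07) did not pass the test. The start of PSMC5 overlaps FTSJ3, which fell by 0.96 on the log2 scale, and reads over the bases they share were not separated here.

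The PSMC1 locus at chr14:90256544-90275409 held few reads, with a mean DMSO value of 54.4 per kb of reference transcript against 1805 or more for the other ATPases. It had values of 195, 242 and 280.1 in DMSO and 356, 282 and 308 in THZ531, with a log2 fold change of 0.41 ± 0.15 (SE, adjusted p = 0.0213 in limma). The call was lost without DMSO replicate 1 (adjusted p = 0.105) or THZ531 replicate 1 (0.105) and in limma without a trend (0.0754). A locus without a symbol at chr3:68635698-68637033, which lies on the processed pseudogene PSMC1P1 over 98.8% of its length, had values of 16975, 17831 and 18281 in DMSO and 21310.4, 20844 and 20466 in THZ531. All 3 treated libraries were higher there, by 0.24 ± 0.04 on the log2 scale (SE, adjusted p = 2.15e-05 in limma). GENCODE v44 lists 13 pseudogenes of PSMC1. Reads of a gene and of a near-identical copy cannot be told apart in these values, so the level and the change of PSMC1 are uncertain. Both loci were higher in THZ531. The PSMC1 locus also overlaps NRDE2, which rose by 0.61 on the log2 scale, and reads over the bases they share were not separated here.

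Among the other subunits of the base, PSMD2, a scaffold that binds shuttle factors, had values of 44197, 42129 and 41818 in DMSO and 58678, 58246 and 57780.4 in THZ531. It was the most abundant per kb of these 3 subunits, and its groups were far apart, with a log2 fold change of 0.45 ± 0.03 (SE, adjusted p = 4.6e-09 in limma). PSMD1, the companion scaffold, rose by a similar 0.42. PSMD4, a receptor for ubiquitin chains, did not pass the test, with a log2 fold change of 0.06. The PSMD2 locus lies within the listed coordinates of EIF2B5, which had a log2 fold change of -0.42. Reads over the bases that PSMD2 and EIF2B5 share were not separated here.

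In the lid 6 of 8 genes rose, while all 8 were below 0 when scaled to RPL34. PSMD8, the most abundant of them per kb, had values of 22378, 22385 and 21789.6 in DMSO and 25486, 25552 and 26094 in THZ531, which did not overlap, with a log2 fold change of 0.21 ± 0.03 (SE, adjusted p = 1.88e-05 in limma). The largest rises in the lid were those of PSMD11 (0.49), PSMD12 (0.43) and PSMD14 (0.37), the last of which encodes the deubiquitinase that cuts the chain from the substrate. PSMD3 (0.21) and PSMD6 (0.18) rose less, while PSMD13 (0.05) and PSMD7 (-0.04) did not pass the test.

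The 3 chaperones that assemble the base went in different directions. PSMD5, which binds ATPase subunits during assembly, had values of 2802, 2586 and 2619 in DMSO and 1952, 1894 and 1926 in THZ531. All treated libraries were below all controls, and the log2 fold change of -0.47 ± 0.05 (SE, adjusted p = 5.31e-07 in limma) was the lowest of the members. PSMD9, a chaperone of the same step, had values of 1597, 1726 and 1648 in DMSO and 2292, 2425 and 2513 in THZ531, which were as clearly separated in the opposite direction. Its log2 fold change was 0.54 ± 0.06 (SE, adjusted p = 2.87e-07 in limma). PSMD10, the oncoprotein gankyrin, was 0.16 higher (adjusted p = 0.0324 in limma) with overlapping groups, and the call was lost without DMSO replicate 2 (0.0769) or 3 (0.133) and without THZ531 replicate 1 (0.135) or 3 (0.125). It was also lost with no minimum (0.0553), with upper-quartile scaling (0.0535), in limma without a trend (0.139) and in edgeR (0.0524).

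Of the 4 chaperones that assemble the core, PSMG1 alone passed the test. It had values of 3735, 3545 and 3509 in DMSO and 4644, 4367 and 4446 in THZ531, a separation of the groups with a log2 fold change of 0.32 ± 0.04 (SE, adjusted p = 9.95e-06 in limma). PSMG2 (-0.03), PSMG3 (0.11) and PSMG4 (0.26, on values of only 190–257) did not pass the test. The PSMG4 locus overlaps SLC22A23, which had a log2 fold change of -1.04. Reads over the bases that PSMG4 and SLC22A23 share were not separated here.

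The activators bind the ends of the core in place of the regulatory particle. PSME4, which encodes the large nuclear activator, had values of 1893, 1731 and 1892 in DMSO and 2668, 2712 and 2649.7 in THZ531. The gap between the groups was wide, with a log2 fold change of 0.54 ± 0.05 (SE, adjusted p = 1.44e-07 in limma), the third largest of the members. PSME3, which encodes the nuclear activator of the other family, went down, with values of 6392, 6013 and 6076 in DMSO and 5702, 5573 and 5475 in THZ531 and a log2 fold change of -0.14 ± 0.04 (SE, adjusted p = 0.00562 in limma). PSME1 and PSME2 encode the partners of the interferon-inducible activator. PSME1 had values of 9449, 10460.3 and 10234 in DMSO and 11534, 11186 and 11516 in THZ531, with a log2 fold change of 0.18 ± 0.04 (SE, adjusted p = 0.000826 in limma). PSME2 was 0.41 higher on the log2 scale, but its locus in the table runs over chr14:24143365-24697845 and holds many other genes, among them KHNYN, which fell by 1.93. PSMF1, which encodes an inhibitor of the core, had values of 3423, 3367 and 3648 in DMSO and 3437, 3432 and 3627 in THZ531, a log2 fold change of 0.01 with a 95% interval of -0.09 to 0.11.

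The 2 members that were not tested belong to specialised proteasomes of testis (PSMA8) and thymus (PSMB11). PSMA8 was listed at 0 in all 6 libraries, and PSMB11 was listed at 0 in all but DMSO replicate 2, where its value was 3.71. Neither could be compared at this depth.

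The members differed far more from one another in level than between the treatments. Per kb of the reference transcript, the mean DMSO value was 33088 ± 1192 (SD, n = 3) for PSMC4, 24542 ± 1876 for PSMB4 and 15723 ± 1743 for PSMA7, at the top of the tested members. The order of the first 3 was the same in THZ531. At the lower end were PSMC1 at 54.4 ± 9.77, PSME4 at 254 ± 12.8, PSMG4 at 255 ± 23.1 and PSMF1 at 427 ± 18.2. PSME4 and PSMG4 did not differ beyond their spread, and the value of PSMC1 carries the limit given above. The next in order were the chaperone genes PSMD9, PSMD5, PSMG3 and PSMD10, from 608 to 1449.7.

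**Figure D5:**
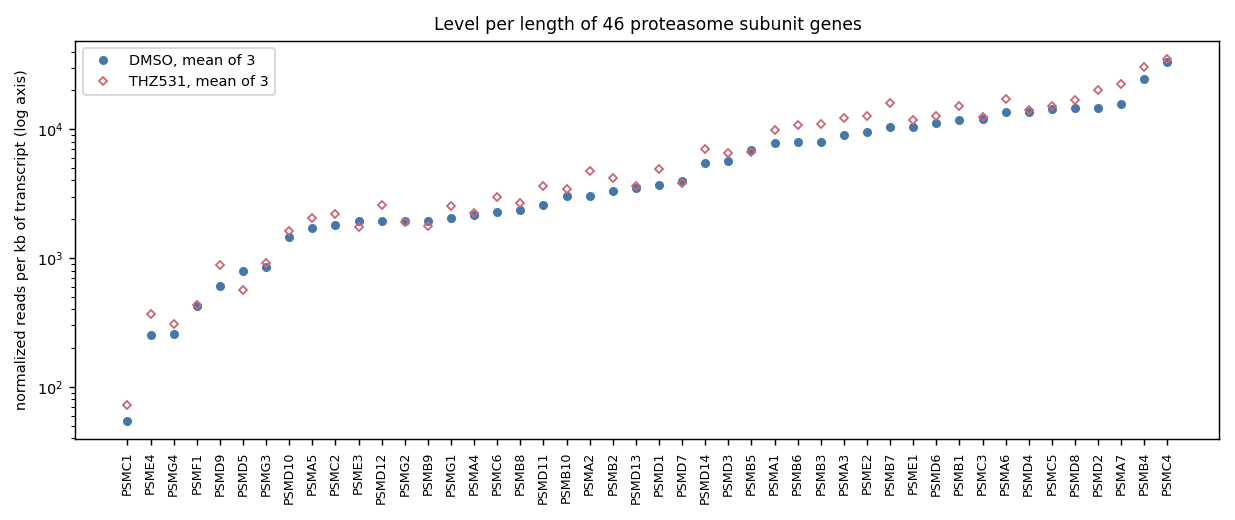
Mean normalized value per kb of reference transcript (vertical axis, log scale) for the tested members in DMSO (filled circles) and THZ531 (open diamonds). Genes are ordered by their DMSO level along the horizontal axis. In DMSO, constitutive core and regulatory subunits other than PSMC1 stand between 1719 (PSMA5) and 33088 (PSMC4), assembly chaperones between 255 (PSMG4) and 2050.4 (PSMG1).

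The genes of the members are compact, and the 46 tested lie on 17 chromosomes, with the most (7 each) on chromosomes 14 and 17. The median span of the reference transcript was 12845 bases for the 46 members tested, against 27633 bases for 13246 tested genes with a reference transcript. The median transcript length was 1494 against 3336 bases, and the median longest intron 4572.5 against 9027.5 bases, while exon counts were alike (8.5 against 9). Across the 46 members Spearman's rho between span and log2 fold change was 0.32, and across all 13246 genes it was -0.05. These are descriptions across genes of 1 experiment and carry no test. PSME4, with the largest number of exons of the members (47) and a span of 106925 bases, was among those that rose most.

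Other genes of the pathway are those of a fixed list of 30 factors that supply, complete or serve the proteasome, of which 29 were tested. 22 rose, 5 fell and 2 did not pass the test, with a median log2 fold change of 0.39, against 15 and 9 when scaled to the same total. In the deposited scaling 5 passed the call of regulated, 3 higher and 2 lower. Over all loci tested 34.6% were changed and higher, 34.1% changed and lower, and 39.5% regulated. Among loci whose DMSO mean reached 1000, 51.0% were changed and higher, with a median of 0.13. ADRM1, a ubiquitin receptor of the base, had values of 19158, 18821 and 19172 in DMSO and 32191, 32255 and 33209 in THZ531, and its log2 fold change of 0.77 ± 0.03 (SE, adjusted p = 7.38e-12 in limma) was larger than that of any PSM gene. POMP, the maturation protein of the core, had values of 6728, 5749 and 5875 in DMSO and 8616, 8939 and 8948 in THZ531, with a log2 fold change of 0.53 ± 0.05 (SE, adjusted p = 1.41e-07 in limma). The regulated and higher genes also included ZFAND5 and ECPAS, and in both the groups were far apart. ZFAND5, which activates the proteasome, had values of 7375, 7401 and 7508 in DMSO and 11980.1, 11267 and 11654 in THZ531, with a log2 fold change of 0.65 ± 0.04 (SE, adjusted p = 2.95e-10 in limma). ECPAS, which binds the proteasome as a scaffold, had values of 4151, 3979.8 and 3721 in DMSO and 5870.4, 5879 and 6047 in THZ531, with a log2 fold change of 0.59 ± 0.05 (SE, adjusted p = 1.11e-08 in limma). ECPAS passed the 1.5-fold threshold narrowly, and it fell short of it with upper-quartile scaling (0.57), in edgeR (0.56), without DMSO replicate 3 (0.55) and without THZ531 replicate 3 (0.57). PAAF1, which binds the ATPases and keeps the regulatory particle from the core, had values of 727, 860.2 and 795 in DMSO and 385, 401 and 419.8 in THZ531. It fell by 0.98 ± 0.09 on the log2 scale (SE, adjusted p = 8.1e-08 in limma), the lowest of the list.

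NFE2L1, the gene of the transcription factor named above, had values of 5519, 5585 and 5936 in DMSO and 5807, 6164 and 6204 in THZ531. Its groups overlapped, with a log2 fold change of 0.09 ± 0.04 (SE, adjusted p = 0.0686 in limma). This p was 0.0178 without DMSO replicate 3 and 0.0379 without THZ531 replicate 1. NFE2L2, whose product NRF2 binds the same element, had values of 2193, 2004 and 2107 in DMSO and 1296, 1078 and 1357 in THZ531, lower in every treated library, with a log2 fold change of -0.76 ± 0.08 (SE, adjusted p = 2.15e-07 in limma). Among the factors that shuttle or deliver substrates, RAD23B (0.54), UBQLN1 (0.55) and VCP (0.46) rose on the log2 scale. RPS27A (0.44) and UBB (0.39), which encode ubiquitin, and the ubiquitin-activating enzyme UBA1 (0.30) rose too. When scaled to RPL34, 12 genes of this list fell and only 1, ADRM1, stayed higher and past the test.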

How the data were processed

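PolyA RNA of 3 DMSO and 3 THZ531 (200 nM, 6 h) OVCAR3 cultures was sequenced with a stranded kit. The authors mapped reads to hg38 with STAR (2.7.5a per the labels), counted them on FAST DB genes with featureCounts and divided the counts by DESeq2 size factors; the deposited values are this signal, not corrected for length. In all libraries 100% of the values were whole multiples of 1 read (tolerance 0.01), so 53054048 to 70986130 reads per library were recovered.

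Loci that reached a value of 10 in 3 or more libraries (17568) entered limma 3.58.1 with a variance trend (R 4.3.3) as log2(value + 1), without covariates, with Benjamini-Hochberg adjustment over all of them. edgeR 4.0.16 and DESeq2 1.42.0 were run on the recovered reads. The scripts were tested on simulated counts. Ratios within libraries were tested by exact permutation. Per-kb levels used MANE transcripts in GENCODE v44, promoters the RefSeq table. Values per library and full statistics were given for regulated members, the 3 highest and 3 lowest log2 fold changes, the catalytic and immunosubunits and the most abundant member of each role. Of the related list these were the regulated genes, NFE2L1, ADRM1 and POMP. Other members were named with their log2 fold change. Members and lists were chosen with earlier results of these data known; PSMB7 with LOC100129034 and PSMC1 with its pseudogene locus were examined after their values were seen. Deviations of same-numbered libraries from their group means correlated at 0.002, 0.019 and -0.039 over the loci tested. These values show no pairing by number, and the libraries were treated as unpaired. They cannot decide whether same-numbered cultures were handled together. Intervals are for the difference between the group means and were computed from the limma standard error. They reflect variation among these 6 libraries only. Some genes of the related list are not reported here.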

Additional observations from a re-analysis of the deposited data

How the results depend on the processing

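With every library scaled to the same total, no member was regulated and higher and 1 was regulated and lower. 18 members were changed and higher and 13 changed and lower, with a median log2 fold change of 0.024, and of the related genes 0 were regulated and higher and 9 changed and lower. Log2 fold changes turned negative for PSMA4 -0.17, PSMB8 -0.070, PSMB10 -0.072, PSMC3 -0.19, PSMC4 -0.16, PSMC5 -0.17, PSMD4 -0.18, PSMD3 -0.028, PSMD6 -0.067, PSMD8 -0.030, PSMD13 -0.19, PSMD10 -0.079, PSMG3 -0.13, PSME1 -0.058, PSMF1 -0.23 and NFE2L1 -0.15. Scaled to RPL34, 0 members were regulated and higher and 3 lower, 0 were changed and higher and 24 lower, with a median of -0.23. Of the related genes 0 were then regulated and higher, 5 regulated and lower, 1 changed and higher and 12 changed and lower. Log2 fold changes turned negative for PSMA1 -0.17, PSMA3 -0.054, PSMA4 -0.42, PSMA5 -0.23, PSMA6 -0.14, PSMB1 -0.13, PSMB2 -0.15, PSMB3 -0.025, PSMB4 -0.19, PSMB6 -0.051, PSMB8 -0.32, PSMB10 -0.32, PSMC1 -0.082, PSMC2 -0.22, PSMC3 -0.44, PSMC4 -0.41, PSMC5 -0.42, PSMC6 -0.10, PSMD1 -0.077, PSMD2 -0.046, PSMD4 -0.43, PSMD3 -0.28, PSMD6 -0.32, PSMD8 -0.28, PSMD11 -0.0047, PSMD12 -0.065, PSMD13 -0.44, PSMD14 -0.12, PSMD10 -0.33, PSMG1 -0.17, PSMG3 -0.38, PSMG4 -0.23, PSME1 -0.31, PSME2 -0.083, PSMF1 -0.48 and NFE2L1 -0.40. These settings shift all loci together by construction, by -0.24 and -0.49, and the other settings kept the median of the members between 0.24 and 0.28. In limma without a trend 27 members were changed and higher and 2 lower: PSMB8, PSMB9, PSMB10, PSMC1, PSMC4 and PSMD10 lost the call. PSMC4 and PSMD10 lost it in edgeR and with upper-quartile scaling, PSMB9 in DESeq2, and PSMB9, PSMC4 and PSMD10 with no minimum. PSMF1, at 0.01, was at -0.013 with upper-quartile scaling and -0.014 in edgeR. With a fold threshold of 2, 0 members and 0 related genes were regulated in either direction. PSMB7 summed with LOC100129034, an alternative added after seeing the data, gave a PSMB7 log2 fold change of -0.031 and left 1 member regulated. PSMC1 read from the chromosome 3 locus, added likewise, kept its call.

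Leaving out each library in turn gave 1 to 3 members regulated and higher (1 without DMSO replicate 3, 3 without DMSO replicate 1) and 2 to 5 related genes regulated and higher (5 without DMSO replicate 1, 2 without DMSO replicate 3 or THZ531 replicate 3). Over 53 genes and 6 libraries, 292 log2 fold changes kept their direction and call, 17 lost the call, 5 gained it and 4 turned. PSMF1 ranged from -0.018 to 0.043 and PSMG2 from -0.069 to 0.024. PSMC5 (0.12 without DMSO replicate 3), PSMD4 (0.09 without DMSO replicate 1) and PSMG3 (0.16 without DMSO replicate 1) gained the call. With the replicate number as a block, 31 members were changed and higher and 2 lower, PSMC4 and PSMB9 lost the call (adjusted p = 0.0531 and 0.0545 in limma), and no other call among the 53 genes changed. Every member tested held at least 171 reads in each library.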

Other observations

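Loci without a symbol that passed the minimum of expression were found within or across the edge of PSMA3, PSMD7, PSMD14 and PSMG1, besides those within the long PSME2 locus. The locus at chr16:74305739-74307770, at the downstream edge of PSMD7, had values of 84.9, 77.9 and 75.8 in DMSO and 18.9, 33.0 and 19.3 in THZ531, a log2 fold change of -1.75 ± 0.31 (SE, adjusted p = 9.27e-05 in limma), while PSMD7 itself was at -0.04 and did not pass the test. The locus at chr2:161339518-161339954, within PSMD14, had values of 187, 218 and 223 in DMSO and 273, 279.6 and 299 in THZ531, a log2 fold change of 0.44 ± 0.13 (SE), beside 0.37 for PSMD14. The locus at chr14:58269443-58271306, within PSMA3, did not pass the test, with a log2 fold change of -0.34 ± 0.18 (SE), while PSMA3 rose by 0.44. The locus at chr21:39183192-39184350, across the upstream edge of PSMG1, rose by 0.38 ± 0.12 (SE), beside 0.32 for PSMG1. These loci hold few reads and their transcripts were not identified here.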
